A study of Solanum tuberosum with 36 samples.

Results

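The transcripts described here are 80 potato genes that were read in well-watered leaves of 4 cultivars and nearly absent after 10 days without water. They were chosen from the authors' mean normalised reads on day 0 and day 10. A gene had to have a day 10 mean of at most 10 reads in all 4 cultivars, which 5000 of the 25289 genes did (19.8%). Most of these 5000 were low on day 0 as well, and only 373 of them exceeded 10 reads on day 0 in every cultivar. The 80 genes were those whose lowest day 0 mean over the 4 cultivars was the largest. They are 0.581% of the 13781 genes whose day 0 means were at least as high in all 4 cultivars. Their low level on day 10 and their high level on day 0 are therefore given by the choice, and values of those days are descriptions without a test.

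Gwiazda and Tajfun are drought-tolerant cultivars, and Oberon and Owacja are the drought-sensitive cultivars grown as their partners. Gwiazda and Oberon have a parent in common, and Tajfun and Owacja are related through a breeding clone. Plants grew in pots in a half-open greenhouse, watering ended some weeks after tubers began to form, and upper leaves were taken on day 0 (watered), day 6 and day 10. Each of the 12 groups of cultivar and day has 3 labelled leaf samples from different plants. The age of the plants and the day of drought advance together, so the time without water and the age cannot be told apart. The study also describes yellowing lower leaves in Owacja on day 10.

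The deposited values are group means, and the whole reads of each library were solved from them. Solved values lay within 9.4e-06 of a whole number. This gave 35 of the 36 libraries, because the Oberon day 10 means hold 2 libraries where the labels name 3. The libraries of a group are called a, b and c, since no replicate number could be attached to them. Each held between 34298072 and 41041276 estimated reads assigned to genes. Even the lowest of these totals is above the largest number of mapped reads that the study lists for any library. The totals are thus not plain counts of mapped reads, and the reason for the gap was not tested. Between 96.6% and 97.5% of the values above 0 in a group were even, so a value of 2 reads mostly stands for 1 fragment. Reads were scaled with size factors, the median ratio of each library to the mean of all 35. In this unit RAB18 (PGSC0003DMG400003531), a dehydrin gene used as a drought marker, had 32.1 to 180.0 reads on day 0 and 691 to 6099 in the drought libraries, without overlap. Scaling by the library total in place of size factors shifts the median gene by 0.33 in Tajfun on both drought days, and by 0.41 and 0.28 in Owacja on days 6 and 10, on the log2 scale relative to day 0.

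When water runs short, plants close their stomata, largely through abscisic acid, and slow the growth of young leaves. Transcripts for dehydrins and other protective proteins accumulate, while many transcripts for photosynthesis, cell wall extension, cell division and defence decline. In RNA from whole leaves, fewer cells of a kind and less of a transcript in each cell cannot be told apart. The identifiers of the 80 genes are not paired with names in the files, and none of the 25289 matched the annotation table used here, so their functions are not described.

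The 80 genes together made up a small share of the leaf RNA on day 0 and almost none on day 10. Their summed scaled reads per library were 18542 to 21671 in Gwiazda, 16241 to 22289 in Oberon, 29853 to 33033 in Tajfun and 23272 to 33859 in Owacja on day 0. On day 10 the sums were 136 to 194, 202 to 214, 117 to 168 and 168 to 180, in the same order of cultivars. Day 6 lay between. The Gwiazda day 6 libraries summed to 902, 1120 and 2547 reads, and those of Oberon to 3358, 1869 and 1161. The Tajfun day 6 libraries held 2383 to 2486 and the Owacja ones 1258 to 1829. As a share of all reads the 80 genes held 0.0413% to 0.0758% on day 0, 0.00235% to 0.0104% on day 6 and 0.000334% to 0.000542% on day 10, values that need no size factor. In every cultivar all day 6 sums lay under all day 0 sums and above all day 10 sums.

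**Figure D1:**
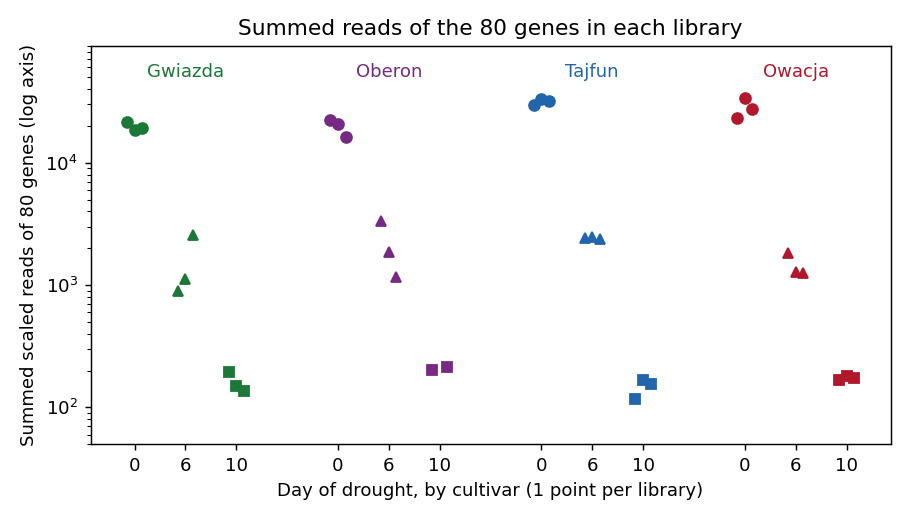
Summed scaled reads of the 80 genes in each of the 35 libraries, by cultivar and day, on a log axis. Each point is 1 library. The day 6 points lie between 902 and 3358 reads, the day 0 points from 16241 upwards and the day 10 points at or below 214.

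Some libraries stood apart on day 6. In Gwiazda library c, 26 of the 80 genes had at most 10 scaled reads, against 53 and 52 in libraries a and b. The same library had the lowest RAB18 level of its group, 917 scaled reads against 1877 and 3468. In Oberon library c the number was 56, against 46 and 42 in libraries a and b. The day 6 libraries of Tajfun (30 to 33 genes) and of Owacja (40 to 45 genes) were closer to each other. Of the genes with a scaled day 6 mean above 10, 1 library held over 70% of the reads in 21 of 51 in Gwiazda, 9 of 35 in Oberon, 5 of 51 in Tajfun and 11 of 43 in Owacja. Counts and medians for Gwiazda on day 6 are therefore given with and without library c. The part of library quality or of the state of single plants in these differences was not tested. In the study's mapping summary, 1 Gwiazda day 6 library had by far the largest share of reads at multiple loci of all libraries. Whether this was library a, b or c cannot be told.

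The gene with the highest level was PGSC0003DMG400016536, with a smallest day 0 mean of 1718 reads. On day 0 its scaled reads were 1539, 1409 and 2146 in Gwiazda and 1639, 2024 and 1840 in Oberon. In Tajfun they were 1568, 4507 and 1967, and in Owacja 3698, 3203 and 2468. On day 6 every library held 13.3 to 134 reads, and the day 6 means of the 4 cultivars were 1.61% (Owacja) to 4.15% (Gwiazda) of day 0. On day 10 it had 0 in all Owacja libraries and at most 11.5 reads in any other.

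PGSC0003DMG401022600 came next, with a smallest day 0 mean of 716 reads. Its day 0 libraries held 633 to 1069 scaled reads in Gwiazda, 532 to 881 in Oberon, 1587 to 1954 in Tajfun and 917 to 1366 in Owacja. It was listed at 0 in every drought library other than Owacja day 6 library b, which held 17.3 reads. The identifier of another of the 80 genes, PGSC0003DMG402022600, differs from it in 1 digit. That gene, picked out after its values were seen, had 117 to 292 reads in the day 0 libraries and at most 8.26 in the drought libraries. Whether the counting could have divided reads between these genes was not tested.

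The highest day 6 mean of all, 545 reads in Oberon, belonged to PGSC0003DMG400014766, also picked out after its values were seen. Its Oberon day 6 libraries held 1341, 321 and 48.9 scaled reads, and those of day 0 1826, 1039 and 1405. Library a thus lay within the day 0 range and library c far below it. The day 6 libraries of the other cultivars held 16.5 to 155 reads, and the mean left was 40.4% in Oberon against 5.52% in Gwiazda, 15.4% in Tajfun and 9.43% in Owacja.

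The other members were lower on day 0. Over the 80 genes the smallest day 0 mean ran from 55.4 to 1718 reads, with a median of 95.7. At the threshold, PGSC0003DMG400007291 and PGSC0003DMG401013422 were the last to be included, with 55.8 and 55.4 reads, and PGSC0003DMG400014033 and PGSC0003DMG400022676 fell just outside with 54.8 and 54.7. The day 10 means of the first of these outside genes were as high as 9.95 reads, whereas PGSC0003DMG400007291 was listed at 0 in all 4 cultivars on day 10.

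Levels on day 0 differed between the cultivars. The highest cultivar mean was a median of 2.62 times the lowest over the 80 genes, with a range of 1.19 to 14.4, and a median of 1.63 times over the 13781 genes as high on day 0. Tajfun had the highest day 0 mean in 34 of the 80 genes, Owacja in 24, Gwiazda in 12 and Oberon in 10. In 13 genes (16.2%) both Tajfun and Owacja were at least 2-fold above both Gwiazda and Oberon, against 2.29% of the genes as high on day 0. The opposite pattern was found in 0 genes, against 1.12% of that background. As the rule set a minimum in all 4 cultivars, these shares are descriptions. The background shares that minimum but has no upper limit, so it was not matched to the day 0 level of the 80 genes. As an example, PGSC0003DMG401013422 had 33.4 to 126 reads in the Gwiazda and Oberon libraries and 168 to 742 in those of Tajfun and Owacja. Within a group the day 0 libraries also varied, with a median coefficient of variation of 42.0% in Gwiazda, 34.9% in Oberon, 28.5% in Tajfun and 37.7% in Owacja.

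On day 6 most of the 80 genes were already far below day 0. The day 6 mean was a median of 7.52% of the day 0 mean in Gwiazda, 4.94% in Oberon, 6.89% in Tajfun and 3.65% in Owacja. Without Gwiazda library c the Gwiazda median was 2.32%, below that of every other cultivar with all its libraries kept. No library was left out of the other cultivars for this median, so the order is not on a like basis. For the genes as high on day 0 these medians were 98.5%, 99.7%, 101.0% and 99.0%. On the log2(mean + 1) scale the median day 6 minus day 0 difference was -3.68 in Gwiazda, -4.21 in Oberon, -3.72 in Tajfun and -4.48 in Owacja, and between -0.07 and 0.02 over all genes with a value. Without library c it was -5.02 in Gwiazda. These contrasts share the day 0 libraries with the rule, so no test is given.

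**Figure D2:**
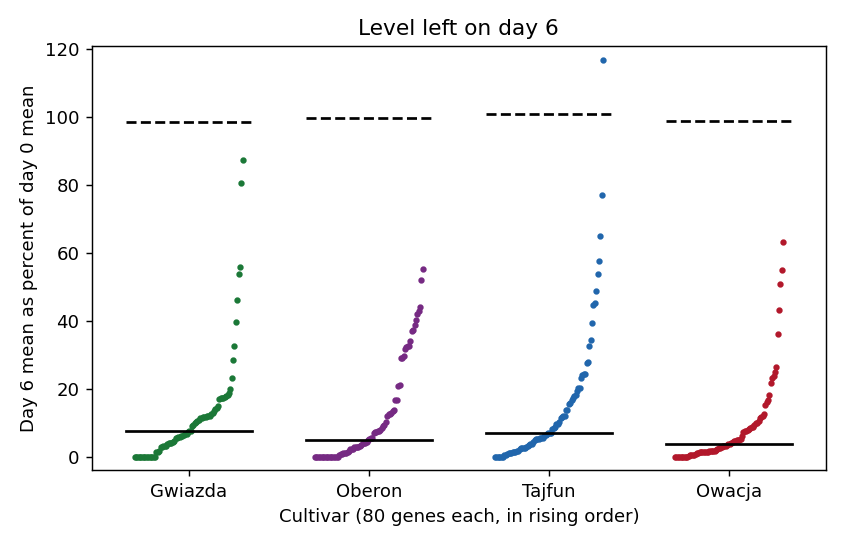
Day 6 mean as a percent of the day 0 mean for each of the 80 genes, in rising order within a cultivar. Solid lines are medians over the 80 genes (3.65% to 7.52%) and dashed lines are medians over the 13781 genes as high on day 0 (98.5% to 101.0%).

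At least 2-fold lower on day 6 than on day 0 were 76 of the 80 genes in Gwiazda, 78 in Oberon, 75 in Tajfun and 77 in Owacja. The same held for 22.2%, 20.7%, 20.4% and 20.9% of all genes. In all 4 cultivars it held for 69 of the 80 genes, and for 8.02% of all genes. Every day 6 library lay below every day 0 library in 73 of the 80 genes in Gwiazda, 69 in Oberon, 73 in Tajfun and 77 in Owacja, against 19.4%, 17.9%, 23.9% and 24.0% of all genes. Without Gwiazda library c the Gwiazda counts were 77 and 73. As the rule used the day 0 libraries, nothing is read from the excess over the background.

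A mean of at most 10 reads was already reached on day 6 by 29 of the 80 genes in Gwiazda, 46 in Oberon, 29 in Tajfun and 37 in Owacja. Of the 13781 genes as high on day 0, the members included, it was reached by 0.834%, 0.82%, 0.501% and 0.631%. The Gwiazda count rested on library c: without it the count was 50, and it was 30 at the lowest when another library was left out. The order of Gwiazda and Oberon in these counts thus changed with 1 library. Without 1 library the counts were 43 to 48 in Oberon, 28 to 30 in Tajfun and 36 to 41 in Owacja. Tajfun had a lower count than Owacja whichever library was left out.

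The genes differed in how many cultivars had reached this level by day 6. It was reached in all 4 cultivars by 13 genes, against 0.131% of the genes as high on day 0. It was reached in 3 cultivars by 10 genes, in 2 by 22, in 1 by 15 and in none by 20. The level on day 0 did not order these groups. The median of the smallest day 0 mean was 94.6 reads in the 13 genes low in all 4 cultivars and 96.9 in the 20 genes low in none. In the 20 genes, the percent of day 0 left on day 6 (median over the cultivars) ran from 2.63% to 53.2%.

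**Figure D3:**
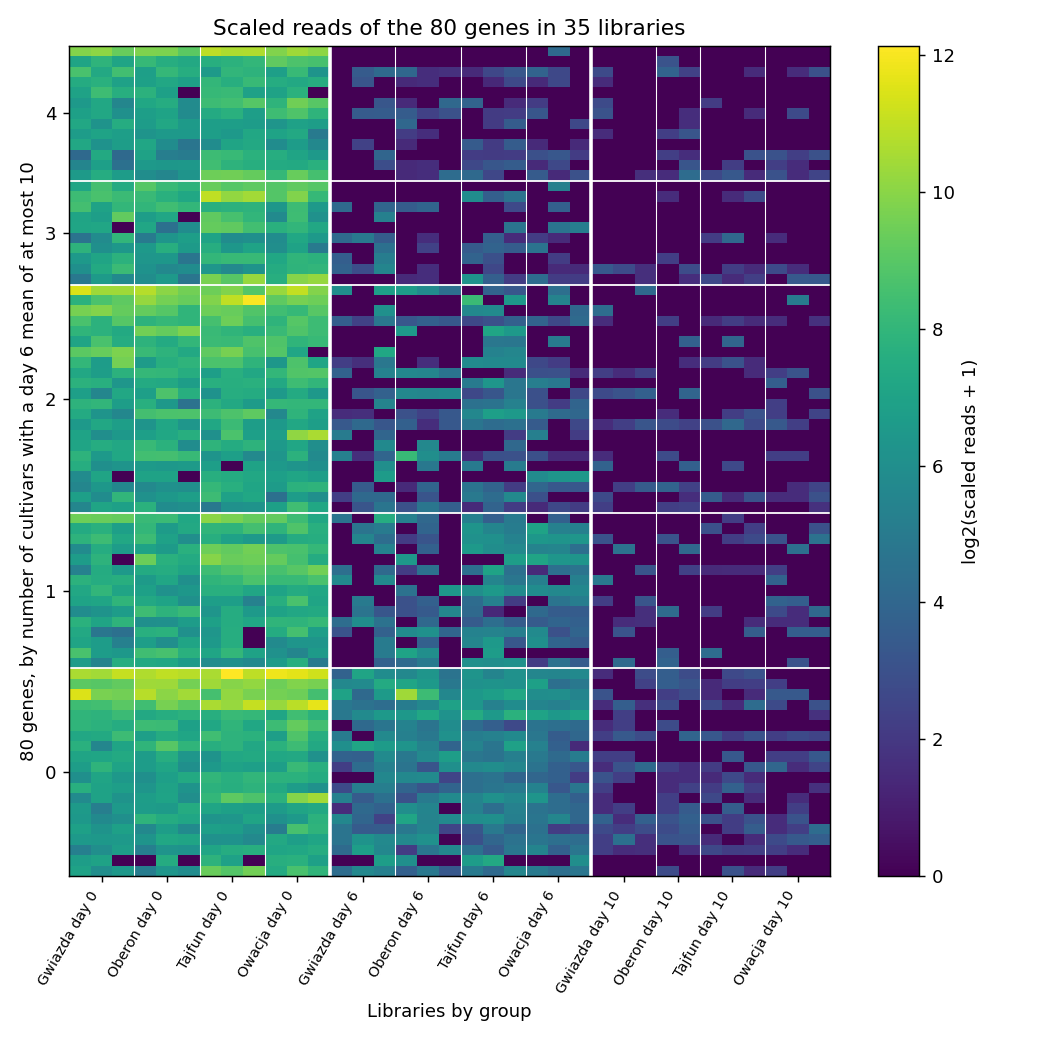
Scaled reads of the 80 genes (rows) in the 35 libraries (columns), as log2(scaled reads + 1), sorted from top to bottom by the number of cultivars with a day 6 mean of at most 10 reads (13, 10, 22, 15 and 20 genes). Dark cells are values at or near 0: single dark cells occur among the day 0 libraries, and library c of Gwiazda day 6 is lighter than its neighbours a and b.

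On the log2(mean + 1) scale, the largest day 6 differences from day 0 belonged to PGSC0003DMG401022600, described above, and to PGSC0003DMG400019319. The latter had 141 to 358 scaled reads in the Gwiazda day 0 libraries, 231 to 497 in Oberon, 487 to 632 in Tajfun and 473 to 573 in Owacja. Of its 23 drought libraries only Owacja day 6 library b, with 38.1 reads, was above 0. The library was thus the same one that held reads of PGSC0003DMG401022600. A further gene, PGSC0003DMG400016719, picked out after its values were seen, was the only 1 of the 80 listed at 0 in all 23 drought libraries. It was also listed at 0 in 1 day 0 library of Oberon and 1 of Owacja, beside 120 to 220 and 128 to 218 reads in the other libraries of these groups.

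The smallest day 6 differences were those of PGSC0003DMG400018579 and PGSC0003DMG400007291. PGSC0003DMG400018579 had 139 to 343 scaled reads on day 0. Its day 6 libraries held 28.5, 55.8 and 90.9 reads in Gwiazda, 87.7, 147 and 72.1 in Oberon, 175, 89.3 and 215 in Tajfun, and 132, 86.6 and 125 in Owacja. The mean left on day 6 was 23.1% in Gwiazda, 55.4% in Oberon, 65.0% in Tajfun and 51.0% in Owacja. Day 0 and day 6 libraries did not overlap in Gwiazda, Oberon or Owacja, and overlapped in Tajfun. On day 10 none of the 11 libraries was above 3.84 reads.

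PGSC0003DMG400007291 behaved in another way. Its day 0 libraries were 107, 128 and 0 in Gwiazda, 0, 176 and 0 in Oberon, 230, 122 and 0 in Tajfun, and 193, 206 and 120 in Owacja. On day 6 it had 106 reads in 1 Gwiazda library, 64.9 in 1 Oberon library, 105 and 157 in Tajfun and 62.6 in 1 Owacja library, and 0 in the rest. Its libraries thus held either 0 or at least 62.6 reads, and the libraries of days 0 and 6 overlapped in Gwiazda, Oberon and Tajfun but not in Owacja.

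Values of this all-or-none kind were found in 19 of the 80 genes (23.8%), which had no library above 0 and up to 10 scaled reads. Of the 13781 genes as high on day 0, 6.38% had this form, with at least 1 library at 0. The rule chose genes near 0 on day 10, so these 2 shares are not on a like basis. Only 1166 of the 13781 genes had a library at 0, and 879 of these 1166 had the form. Set beside that count, the form was less common in the 80 genes. In 7 of the 10 members with a day 0 library at 0 the values had this form, and 15 of the 960 day 0 values were 0. Over all genes, 1 library was listed at 0 beside 2 libraries above 50 scaled reads in 2145 pairs of gene and group, and beside 2 above 1000 in 19 pairs. The reads per transcript are estimates, so a listed 0 may be a failed estimate. Differences on the log2 scale against a group at 0 are set by the pseudocount and are not fold changes. Among the other 61 genes, a mean of at most 10 reads on day 6 was reached by 19 in Gwiazda, 33 in Oberon, 22 in Tajfun and 29 in Owacja, and by 11 in all 4 cultivars.

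By the group means, most genes were lower again on day 10 than on day 6. At least 2-fold lower on day 10 than on day 6 were 59 of the 80 genes in Gwiazda, 47 in Oberon, 68 in Tajfun and 53 in Owacja. Among genes with reads on either day these were 88.1%, 70.1%, 93.2% and 75.7% of the members. The same held for 15.6%, 16.1%, 15.8% and 16.4% of all genes with reads on either day. Without Gwiazda day 6 library c the Gwiazda count was 40. The rule fixed the day 10 level, so this excess is a description. Every day 10 library lay below every day 6 library in fewer genes: 19 in Gwiazda, 25 in Oberon (2 day 10 libraries), 44 in Tajfun and 28 in Owacja. A day 6 library at 0 prevents such a separation, and the same share of all genes was not counted. The median log2 difference was -1.98 in Gwiazda, -1.66 in Oberon, -3.0 in Tajfun and -2.03 in Owacja, and -0.96 in Gwiazda without library c. The day 10 mean was above the day 6 mean in 6, 14, 3 and 2 genes, in the same order, and in 10 in Gwiazda without library c. By day 6 a median of 94.2% (Gwiazda), 96.4% (Oberon), 93.3% (Tajfun) and 97.5% (Owacja) of the whole fall to day 10 had taken place, on the scale of reads, and 98.1% in Gwiazda without library c.

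On day 10 the genes were close to the limit of counting. All day 10 libraries were at 0 in 35 of the 80 genes in Gwiazda, 35 in Oberon (2 libraries), 38 in Tajfun and 35 in Owacja. In 18 genes all 11 day 10 libraries were at 0. Of the 1840 values in the drought libraries, 918 were 0 and 405 were above 0 and up to 10 scaled reads. Every day 10 library lay below every day 0 library in 76 genes in each of Gwiazda, Oberon and Tajfun and in 78 in Owacja, which the rule nearly fixes.

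The day 6 libraries were used on neither side of the rule, so the cultivars of a pair could be compared on that day with a test. The question asked was whether the tolerant and the sensitive cultivar of a pair held different amounts of these transcripts at the same time without water. The test was limma's moderated test on log2(scaled reads + 1), with a Benjamini-Hochberg adjustment over all genes fitted, those with a mean of at least 5 reads. P-values weigh a difference against the spread between these leaf samples, which limma moderates over all genes fitted.

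In Gwiazda and Oberon the genes differed in both directions and none passed the test. The median difference was 0.00 on the log2 scale. By the authors' means, 25 of the 80 genes were at least 2-fold higher in Gwiazda and 21 at least 2-fold higher in Oberon. These were 35.2% and 29.6% of the 71 members with reads in either cultivar, against 13.6% and 15.4% of all such genes. That background was not matched on day 6 level. Without Gwiazda library c these counts were 15 and 33. Of the 80 genes 59 could be fitted, and 0 had an adjusted p below 0.05 in limma, with 6 below an unadjusted p of 0.05. With voom weights 0 passed as well, with 4 below an unadjusted p of 0.05. Without Gwiazda library c 50 genes could be fitted and 0 passed in limma, with 5 below an unadjusted p of 0.05. In the fit with all libraries 0.49% of all genes passed as higher in Gwiazda and 0.581% as higher in Oberon. The 95% interval of a difference reached a median of 3.32 to either side on the log2 scale over the 59 genes, so even large differences may go undetected at this spread.

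In Tajfun and Owacja the differences leaned towards Tajfun. By the authors' means 30 of the 80 genes were at least 2-fold higher in Tajfun and 7 at least 2-fold higher in Owacja. These were 39.5% and 9.21% of the 76 members with reads in either cultivar, against 11.6% and 11.2% of all such genes. That background was not matched on day 6 level. The median difference was 0.51 on the log2 scale over the 80 genes and 0.00 over all genes. With 1 library left out the counts were 26 to 39 and 6 to 9. Of the 64 genes fitted, 6 passed the test as higher in Tajfun and 1 as higher in Owacja, where 5.49% and 5.65% of all genes fitted passed. Several of the genes that passed, including those described next, had a mean under 5 reads in the lower cultivar. These passed the filter through the higher cultivar alone. Counts this small are not read as a departure from the background, and they were 3 to 9 in all when single libraries were left out (4 without Tajfun library a or b, 3 without Tajfun library c or Owacja library c). The 95% interval reached a median of 1.89 to either side, narrower than in the other pair.

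**Figure D4:**
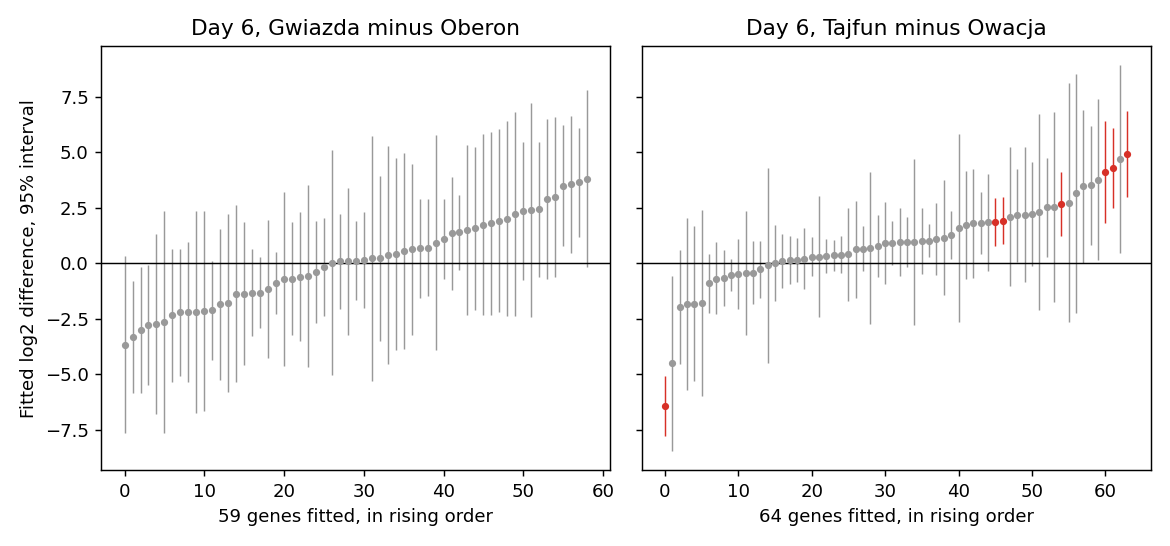
Fitted log2 differences on day 6, Gwiazda minus Oberon (left) and Tajfun minus Owacja (right), with 95% intervals from limma, for the genes that could be fitted (59 and 64 of the 80), in rising order. Red marks an adjusted p below 0.05, which 0 genes reach on the left and 7 on the right, 6 of them above 0.

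PGSC0003DMG400010771 had the largest fitted difference towards Tajfun among those that passed with a pseudocount of 1. With a pseudocount of 5 its fitted difference was 2.80, below the 3.10 of PGSC0003DMG400027047. Its day 6 libraries held 59.5, 11.8 and 22.9 scaled reads in Tajfun and 0 in every Owacja, Gwiazda and Oberon library. The groups did not overlap. The fitted log2 difference was 4.92 ± 0.83 (SE, n = 3 and 3; limma adjusted p = 0.0108), a size that depends on the pseudocount, since Owacja was listed at 0. The gene passed the filter through Tajfun alone, and the SE and p-value hold no spread within Owacja. The call was lost with voom weights (adjusted p = 0.0614) and without Tajfun library a (adjusted p = 0.0504). On day 0 the gene was also highest in Tajfun, with 1156 to 2041 reads against 280 to 907 in Owacja.

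PGSC0003DMG400027047 had 56.1, 53.9 and 53.0 scaled reads in Tajfun on day 6 and 5.10, 3.47 and 0 in Owacja. The Tajfun libraries lay close together and well above those of Owacja. The fitted log2 difference was 4.28 ± 0.78 (SE, n = 3 and 3; limma adjusted p = 0.0139), and the adjusted p was 0.0569 and 0.0557 without Tajfun libraries a and c. With a day 6 mean of 2.85 reads in Owacja, the gene passed the filter through Tajfun alone. The size of the difference depends on the pseudocount here too, and the p-value is weak support. In Gwiazda the day 6 libraries held 3.80, 2.07 and 27.5 reads and in Oberon 0, 2.01 and 0. On day 0 the Tajfun and Owacja libraries overlapped, with 234 to 420 and 84.1 to 428 reads.

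The single gene that passed as higher in Owacja was PGSC0003DMG400000296. It had 57.7, 78.0 and 86.9 scaled reads in Owacja on day 6 and 0 in every Tajfun library, whereas on day 0 both cultivars held it, with 112 to 140 and 155 to 192 reads. The fitted log2 difference was -6.42 ± 0.58 (SE, n = 3 and 3; limma adjusted p = 0.000796), again a size set in part by the pseudocount. The gene passed the filter through Owacja alone, and the SE and p-value hold no spread within Tajfun. The p-value is therefore weak support. This gene is one of the all-or-none genes: no library held between 0 and 57.3 reads, and 1 day 0 library each of Gwiazda and Oberon was at 0. In Gwiazda on day 6 library c held 101 reads and libraries a and b held 0.

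**Figure D5:**
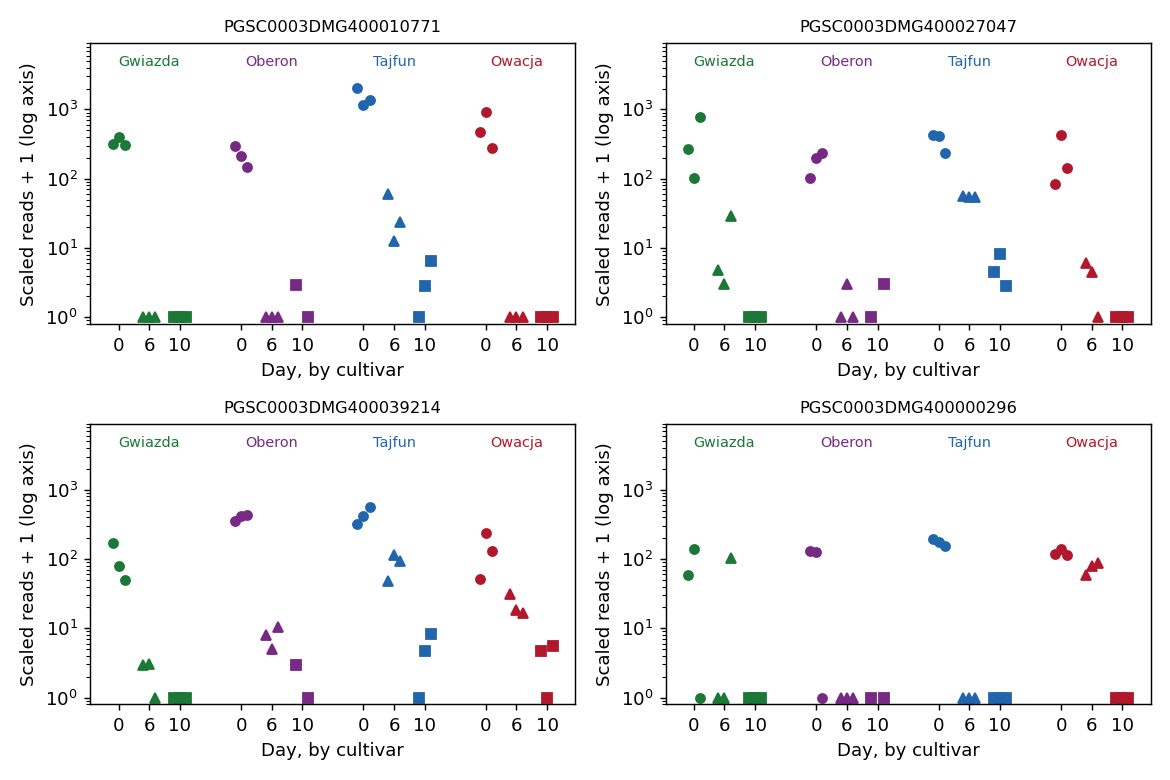
Scaled reads + 1 on a log axis for 4 genes that passed the day 6 test of Tajfun against Owacja, by cultivar and day, with 1 point per library (circles day 0, triangles day 6, squares day 10). In the first 3 genes all Tajfun triangles lie above all Owacja triangles, and in PGSC0003DMG400000296 the Owacja triangles stand at 57.7 to 86.9 reads with Tajfun at 0.

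Of all 80 genes, 10 were at least 2-fold higher on day 6 in both drought-tolerant cultivars than in their partners, against 2.73% of all genes. The opposite, with both drought-sensitive cultivars higher, was found in 2 genes, against 2.61%. Without Gwiazda library c the first count was 5. The second count was 0 without Oberon library a and 1 without Gwiazda library a or b, Oberon library b or Tajfun library b. On the basis of the background, genes with reads on day 6, the counts were 12.8% and 2.56% of 78 members. The background was not matched to the low day 6 level of the 80 genes, where few reads can make a 2-fold gap. The share of genes higher in both drought-tolerant cultivars was not tested, and nothing is read from it.

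Over all 4 cultivars, 10 of the 68 genes fitted passed limma's F test on day 6, where 20.7% of all genes fitted passed. With single libraries left out 4 to 13 passed (4 without Tajfun library a, 5 without Owacja library b or c). Among the 10 genes that passed, the widest fitted differences were those of PGSC0003DMG400000296 (6.29 on the log2 scale, adjusted p = 0.0245) and PGSC0003DMG400028787 (6.19, adjusted p = 0.0142). The latter was listed at 0 in all Gwiazda day 6 libraries and had 22.8, 0 and 88.4 scaled reads in Oberon, 62.9, 89.3 and 56.5 in Tajfun and 59.4, 50.2 and 48.7 in Owacja. It is of the all-or-none form too, with no library above 0 and below 22.8 reads. On day 0 its libraries held 133 to 251 reads in Gwiazda and 69.3 to 204 in the other cultivars, and on day 10 all were at 0. Both of these widest differences were set against cultivars listed at 0 on day 6, Oberon and Tajfun for PGSC0003DMG400000296 and Gwiazda for PGSC0003DMG400028787. Their sizes therefore depend on the pseudocount. The groups at 0 hold no spread, so both p-values are weak support.

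The difference between the cultivars of 1 pair could also be compared with that of the other pair on day 6. In 3 of the 68 genes fitted the difference Gwiazda minus Oberon departed from Tajfun minus Owacja in limma, against 6.18% of all genes fitted. Some of these genes had a mean under 5 reads in Gwiazda and Oberon and could not be fitted in that pair. With voom weights 0 passed, with 11 below an unadjusted p of 0.05, and with single libraries left out 1 to 4 passed (1 without Oberon library a, any of the 3 Tajfun libraries, or Owacja library b or c). This contrast was added after the data had been seen.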

How the data were processed

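RNA-seq was performed on potato leaves of 4 cultivars on days 0, 6 and 10 after irrigation ended, with 36 labelled libraries in 12 groups. The authors checked reads with FastQC, aligned them with TopHat2 to the PGSC pseudomolecules of potato, estimated reads per transcript with Flux Capacitor, summed isoforms per gene and ran DESeq on each pair of groups. The signal values deposited by the authors are the mean normalised reads of a group, in 18 tables normalised one by one. The authors' fold, log2 and p-value columns were not used. Each group stands in 3 tables with different size factors, from which the whole reads of 35 libraries were solved (relative error of the rebuilt means at most 1.4e-14). The solution was tested on simulated data. Group means and folds come from within a table, with a pseudocount of 1. Library values share 1 scale over the 35 libraries. All deposited values belong to genes. Their totals serve as the depth here, though they lie above the mapped reads that the study lists.

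Day 6 was tested with limma 3.58.1 in R 4.3.3 with a trend, two-sided, on libraries of the compared groups, using the authors' size factors for a pair and median ratios for all 4 cultivars, without covariates. Genes with a mean under 5 reads were left out. The design had allowed for group means alone. The 80 genes and the lists were chosen with earlier results of these data known. Genes named are the 2 with the largest smallest day 0 mean, the 2 with the largest and the 2 with the smallest difference between days 0 and 6, up to 2 in each direction of a day 6 test, ranks 79 to 82 and RAB18. Others are said to have been picked after their values were seen. Alternatives covered thresholds, pseudocounts, filters, scaling, voom weights and left-out libraries. A library that is left out of a group of 3 leaves 2. No marker list of leaf cell types was checked. Python 3.11.15 with numpy 2.4.6 and pandas 2.3.3 was used for the rest.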

Additional observations from a re-analysis of the deposited data

Results flagged for a closer look

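On day 6 the difference between the cultivars departed from 1 pair to the other in 3 genes, by the contrast Gwiazda minus Oberon less Tajfun minus Owacja in limma over 12 libraries. For PGSC0003DMG400000296 this contrast was 8.55 ± 2.06 (SE, log2 scale, limma adjusted p = 0.0325). Its Owacja libraries held 57.7 to 86.9 scaled reads, Gwiazda library c held 101 and all other day 6 libraries were at 0. The size thus depends on the pseudocount, and the groups at 0 hold no spread. For PGSC0003DMG400010771 it was -4.80 ± 1.03 (limma adjusted p = 0.0193), with reads above 0 on day 6 in the Tajfun libraries alone. With Gwiazda and Oberon at 0 and not fitted as a pair, this value repeats the difference Tajfun minus Owacja with its sign turned. For PGSC0003DMG400039214, named after its values were seen, it was -3.81 ± 0.94 (limma adjusted p = 0.0361). This gene had 1.90, 2.07 and 0 scaled reads in Gwiazda on day 6, 7.02, 4.01 and 9.31 in Oberon, 47.6, 113 and 93.6 in Tajfun, and 30.6, 17.3 and 15.6 in Owacja. On day 6 Tajfun was thus higher than Owacja, without overlap. Gwiazda was lower than Oberon without overlap too, but these values are a few reads each. Their mean was under the filter of 5 reads, so the gene was not fitted in that pair. The same order held on watered day 0, with 48.7 to 168 scaled reads in Gwiazda, 358 to 431 in Oberon, 321 to 563 in Tajfun and 50.5 to 234 in Owacja. With voom weights 0 genes passed this contrast, with 11 below an unadjusted p of 0.05. With single libraries left out 1 to 4 genes passed, and 1 passed without Oberon library a, any of the 3 Tajfun libraries, or Owacja library b or c.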

How the results depend on the processing

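Of the alternatives to the main counts, 185 gave a count within 1.5 times the main one and 34 did not. With a day 10 mean of at most 5 or of at most 20 reads, 44 of the 80 genes were chosen again. On day 6, at most 5 reads gave 16 genes in Tajfun and 5 in all 4 cultivars, and at most 20 reads gave 54 in Gwiazda and 26 in all 4. Without the all-or-none genes the Gwiazda count was 19. At least 4-fold lower on day 10 than on day 6 were 39 genes in Gwiazda. Leaving out single day 6 libraries gave 30 to 50 genes with at most 10 reads in Gwiazda (50 without library c) and 12 to 17 in all 4 cultivars. Without Gwiazda library c, 15 genes were at least 2-fold higher in Gwiazda than in Oberon and 33 in Oberon, in ranges of 15 to 28 and 16 to 33 over the left-out libraries. Genes higher in both drought-tolerant cultivars numbered 5 to 13, and in both drought-sensitive ones 0 to 3, with 1 library left out. For Tajfun against Owacja, voom weights gave 4 genes and left-out libraries 3 to 9, with 4 without Tajfun library a or b and 3 without Tajfun library c or Owacja library c. The F test gave 16 genes with a pseudocount of 5, 4 with a filter at a mean of 20 and 4 to 13 with left-out libraries (4 without Tajfun library a, 5 without Owacja library b or c). The contrast of the pairs gave 0 with voom weights and 1 to 4 with left-out libraries. A stricter filter and fewer libraries leave fewer genes or samples to test, and the cause of the other changes was not tested. With scaling by the library total, the genes at least 2-fold lower on day 6 than on day 0 in all 4 cultivars numbered 68. No paired analysis was possible because the solved libraries carry no replicate number. Low reads limit the day 10 values, and intervals cover the spread between libraries only.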
